A study of Mus musculus with 24 samples.

Results

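The mitotic kinases and the chromosomal passenger complex were followed as 10 genes of the 21833 in the deposited mouse table, each found once by its symbol. They were Birc5, Aurkb, Incenp and Cdca8, which encode the 4 subunits of the passenger complex (survivin, Aurora B, INCENP and borealin), and the kinases Aurka, Plk1, Cdk1, Bub1, Ttk and Nek2. RNA was measured in 24 libraries of C57Bl6/N-backcrossed mice. The group AG holds glands of CRE - mice, the normal adrenal (n = 3). AGM holds tumor-free adrenal glands from MYCN +/-, CRE + mice (n = 5), TI were tumors of IGF2BP1, CRE + mice (n = 8, of which 7 were +/+ and 1 was +/-), and TIM were tumors of IMP1/MYCN, CRE + mice (n = 8), IMP1 being another name of IGF2BP1. Both transgenes sat behind a stop cassette at Rosa26 and were switched on by an improved Cre driven by Dbh, so in the sympatho-adrenal lineage only, and the IGF2BP1 transgene lacked its 3'UTR. The labels gave no ages and did not tie tumors to animals. Tumor mice were taken when they met the termination criteria, whereas MYCN mice without tumors were kept to the end of the observation. Per the study, mice with both transgenes reached these criteria earlier than IGF2BP1 mice, and their tumors lay at more sites. Age and tumor site thus differed along with genotype, and their part in the values was not tested. Where samples are not separate animals, the p-values measure only the spread between these samples.

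The passenger complex directs Aurora B to the inner centromere, where it releases wrong attachments of microtubules to chromosomes, and later to the spindle midzone for cytokinesis. INCENP is the scaffold, and survivin and borealin bind its end and guide the complex to chromatin. CDK1 with cyclin B drives entry into mitosis, Aurora A and PLK1 build the spindle poles, BUB1 and TTK (MPS1) run the spindle checkpoint at kinetochores, and NEK2 separates centrosomes. Transcripts of these genes rise in G2 and M phase and are low in resting tissue. In neuroblastoma, a childhood tumor of the sympatho-adrenal lineage, Aurora A is also known to protect the MYCN protein from degradation. Values are FPKM, fragments scaled by gene length and by the scaled size of the library. Libraries carry letters in the order of the columns, which have no other meaning. Changes in bulk tissue cannot tell fewer dividing cells from less RNA per cell.

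Genes of this phase often share a cell cycle homology element (TTTGAA or TTCGAA), read by the MuvB complex, near their start, and CCAAT boxes bound by NF-Y. Promoters of RefSeq on GRCm38.p6 (250 bases before to 50 after the start) were found for 8 of the 10 members, all but Aurkb and Incenp. The 30-base windows of 5 members that hold this element are shown, and its part in the levels of the members was not tested. They are printed 5' to 3' on the strand of the gene, with TTTGAA or TTCGAA on either strand in capitals.
Bub1: ctgcgcggggaaTTCGAAtcgccggcggcc
Aurka: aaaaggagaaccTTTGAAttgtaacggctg
Plk1: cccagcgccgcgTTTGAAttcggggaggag
Ttk: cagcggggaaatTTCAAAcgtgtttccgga
Cdk1: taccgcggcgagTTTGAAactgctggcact
The windows lie at chr2:127831828-127831857 (minus strand) for Bub1, chr2:172370521-172370550 (minus) for Aurka, chr7:122159453-122159482 (plus) for Plk1, chr9:83834684-83834713 (plus) for Ttk and chr10:69352910-69352939 (minus) for Cdk1. The first base of the element was at position 15, 33, 31 and 8 from the start in Bub1, Aurka, Plk1 and Ttk, counted from 1 at the start, and 15 bases before it (-15) in Cdk1, the nearer of its 2 matches. Searched on both strands, 6 of 8 member promoters held TTTGAA or TTCGAA, against 19.2% of all 32851 promoters. CCAAT was present in 7 of 8 (37.4% of all promoters). The E-box CACGTG, a motif bound by MYC proteins, was present in Ttk alone (7.15% of all promoters). None of these letters was found in the Birc5 window. None of the 4 motifs contains another, and a match is a description of letters, not a site of binding.

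The table is the authors' batch-corrected and scaled output, and its sequencing runs were tied to groups. AG came from run 1, AGM from run 2, TIM from runs 2 and 3 (3 and 5 samples), and TI from run 1 (6 samples) with 1 sample each from runs 2 and 3. In the comparisons of TIM or AGM with AG, effects of run and of group cannot be told apart. TIM vs TI is also largely split by run, with no TIM sample in run 1. No comparison could be made within a run, since columns were not tied to runs. Outside the 126 genes that exceeded 1000 FPKM in some library, the libraries held 12334076 to 23683176 recovered reads. Those 126 genes took 64.5% to 98.6% of recovered reads in AGM and TIM and 0.217% to 2.21% in AG and TI, and no member was among them. All genes together held 116740738 to 1170004708 recovered reads in AGM and 58530450 to 888626365 in TIM. In TI they held 12468968 to 21353172 and in AG 17434796 to 17893013. These are values of the corrected table, not counts of sequenced fragments. The 9 cortex markers, such as Star and Cyp11b1 of steroid synthesis, summed to 675 to 704 FPKM in AG and 4332 to 5433 in AGM. They summed to at most 13.6 FPKM in TI and 11.3 FPKM in TIM. Dbh, a noradrenaline enzyme of the sympatho-adrenal lineage, was at 10.9 to 15.7 FPKM in AG and 68.5 to 100.5 FPKM in AGM. It was at 21.5 to 246 FPKM in TI tumors and 18.8 to 593 FPKM in TIM tumors, so this marker of the labelled lineage was present in every tumor library.

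All 10 members had the same order of group means, TI above TIM above AG above AGM. Of the 10, 9 passed the filter of at least 1 FPKM in at least 3 libraries, as did 10171 of all genes, and Ttk did not. Among the 9, only Incenp reached 1 FPKM in any gland library, so the others passed through tumor libraries alone. Counts of members higher in tumors than in glands are thus partly fixed by this filter. Groups were compared by limma on log2(FPKM + 1), with FDR the Benjamini-Hochberg adjusted p over all tested genes and a threshold of 0.05. This scale compresses the low values of the glands, so log2 fold changes are smaller than the ratios of the means. Against AG, all 9 tested members rose in TI and 5 rose in TIM, none passed in AGM, and between the tumor models 3 were lower in TIM. Beside TI above TIM, TIM above AG and AG above AGM as neighbours in this order, the differences thus passed for 3, 5 and 0 of 9.

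**Figure D1:**
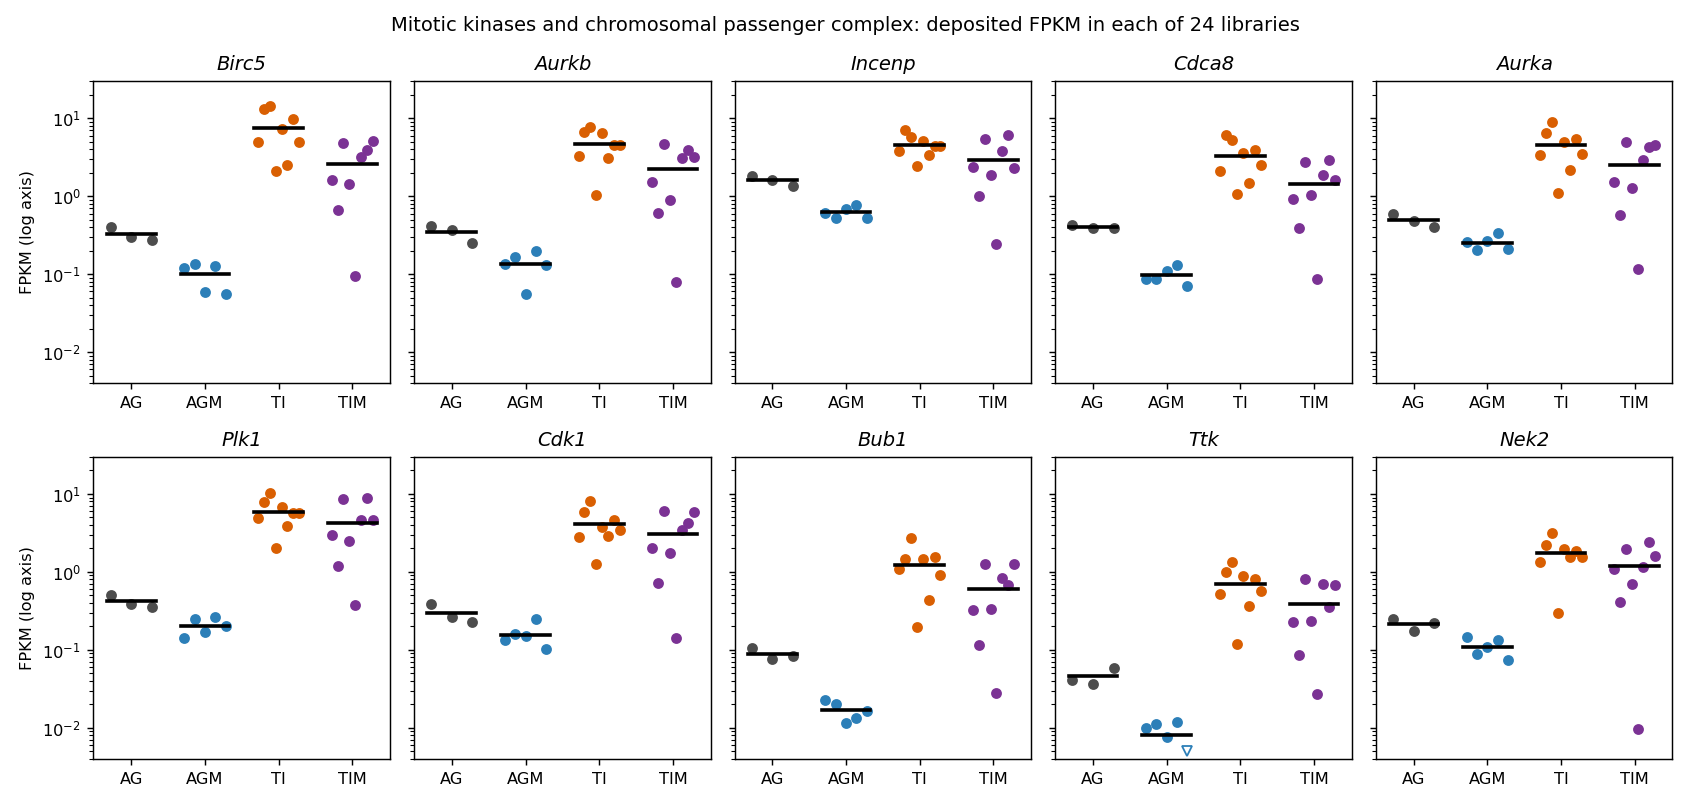
FPKM of each member on a log axis, 1 point per library, in the 4 groups, with the black line at the group mean. All 8 TI points lie above all AG points in each panel, and AGM points lie below AG except for AGM-d in Cdk1. TIM-e lies below the highest AG point in each panel, as does TIM-b in Incenp, Aurka and Cdca8. Ttk at 0 in AGM-e is an open triangle at the lower edge.

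TI tumors were compared with AG to ask how far tumors driven by IGF2BP1 carried mitotic transcripts above the normal gland. Of all tested genes, 24.6% were called higher and 27.7% lower in TI vs AG, and 23.8% had every TI library above every AG library. For the members, the count was 9 of 9 higher, with a median log2 fold change of 1.75 (all genes -0.0021), and in all 10 every TI library lay above every AG library. As most members passed the filter only through tumors, the shares of all tested genes are not a like background for these counts. With no filter, 10 of 10 members and 3170 of 18862 genes were called higher. With limma-voom on recovered reads, 6 of 9 passed, and Aurka (FDR 0.0548), Bub1 (0.0864) and Nek2 (0.149) did not. By that method 2203 of 10171 genes were called higher.

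Birc5 (ENSMUSG00000017716, GRCm39 chr11:117740040-117746581, plus strand) had the widest rise. Survivin, its product, is the subunit that binds phosphorylated histone H3 at centromeres and is also known as an inhibitor of apoptosis. Its values were 0.405, 0.299 and 0.277 FPKM in AG, and in TI the lowest, median and highest were 2.14, 6.15 and 14.5 FPKM. The groups did not overlap, and the mean of TI was 22.7 times that of AG (log2 fold change 2.45 ± 0.47 SE, 95% interval 1.47 to 3.43, limma FDR 0.000148). Plk1 (ENSMUSG00000030867, chr7:121758646-121769108, plus strand), a kinase of spindle poles and mitotic exit, followed. It was at 0.504, 0.393 and 0.360 FPKM in AG and at 2.00, 5.75 and 10.3 FPKM (lowest, median, highest) in TI. This was a 14.1-fold higher mean (log2 fold change 2.19 ± 0.43 SE, limma FDR 0.000198).

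Aurkb (ENSMUSG00000020897, chr11:68936467-68944764, plus strand), the kinase of the complex, measured 0.414, 0.371 and 0.253 FPKM in AG. In TI it ranged from 1.03 over a median of 4.56 to 7.81 FPKM (log2 fold change 1.96 ± 0.42 SE, limma FDR 0.000433). Cdk1 (ENSMUSG00000019942, chr10:69170976-69236595, minus strand), the driver of mitotic entry, was at 0.389, 0.266 and 0.229 FPKM in AG and at 1.25, 3.62 and 8.06 FPKM (lowest, median, highest) in TI (log2 fold change 1.87 ± 0.43 SE, limma FDR 0.000817). For both, the lowest tumor was still above the highest gland. Cdca8 (ENSMUSG00000028873, chr4:124812257-124833104, minus strand), which encodes borealin, had the tightest gland values of all members, 0.425, 0.387 and 0.393 FPKM. It reached 1.07 to 6.16 FPKM in TI (log2 fold change 1.49 ± 0.34 SE, limma FDR 0.000959).

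Incenp (ENSMUSG00000024660, chr19:9846569-9876924, minus strand), the scaffold, differed in its starting level. It was already at 1.83, 1.62 and 1.34 FPKM in AG, above every other member in each AG library. In TI it ranged from 2.43 to 7.14 FPKM, with a median of 4.38 FPKM. The mean rose 2.84-fold, the smallest ratio of the 10 members, with a log2 fold change of 1.05 ± 0.36 SE (limma FDR 0.0162). This call was lost without AG-c (limma FDR 0.0665).

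Aurka (ENSMUSG00000027496, chr2:172198109-172212849, minus strand), the pole kinase, rose from 0.398 to 0.593 FPKM in AG to 1.11 to 9.08 FPKM in TI (limma FDR 0.0019). Bub1 (ENSMUSG00000027379, chr2:127643036-127673806, minus strand), whose phosphorylation of histone H2A recruits the passenger complex, rose from 0.0763 to 0.107 FPKM to 0.198 to 2.70 FPKM (limma FDR 0.00348). Nek2 (ENSMUSG00000026622, chr1:191553548-191565162, plus strand) rose from 0.175 to 0.250 FPKM to 0.301 to 3.14 FPKM (limma FDR 0.00257). All 3 had their lowest TI value in the same tumor, TI-d. Ttk (ENSMUSG00000038379, chr9:83703392-83755037, plus strand), the checkpoint kinase below the filter, was at 0.0417, 0.0367 and 0.0594 FPKM in AG (19 to 31 reads) and at 0.120 to 1.35 FPKM in TI (64 to 667 reads). With no filter it passed in TI vs AG (log2 fold change 0.67, limma FDR 0.00463). In the annotation, Aurka overlaps Cstf1 and Fam210b, Cdk1 overlaps Ank3 and Cdca8 overlaps Airim on the opposite strand. The libraries were strand-specific, but the strand setting of the counting was not given in the sources used here.

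**Figure D2:**
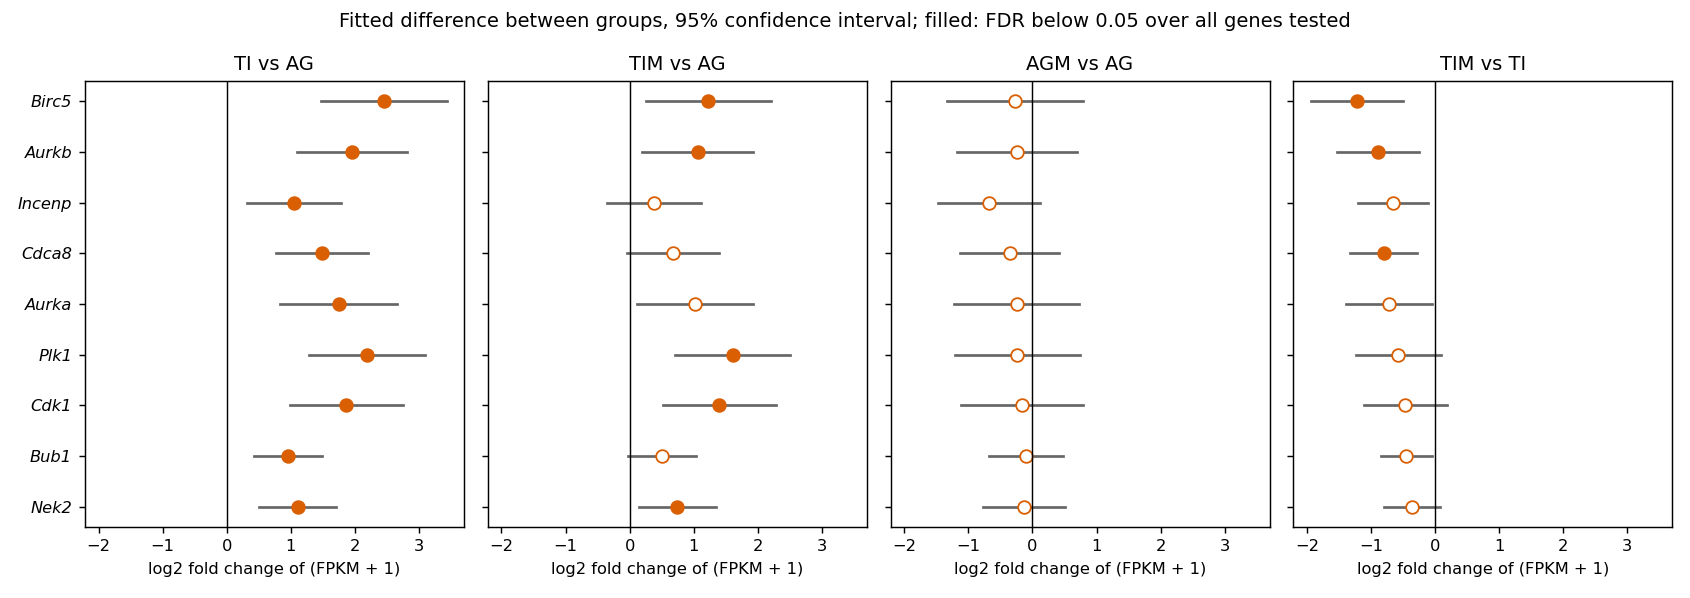
Fitted log2 fold change of (FPKM + 1) of the 9 tested members (points) with 95% confidence intervals (lines) in 4 comparisons, filled where the limma FDR was below 0.05. All 9 are filled on the right of 0 in TI vs AG, 5 in TIM vs AG, none in AGM vs AG, and Birc5, Aurkb and Cdca8 are filled on the left of 0 in TIM vs TI.

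TIM tumors were set against AG to ask the same of tumors with both transgenes. Of all tested genes, 22.5% were called higher and 28.5% lower. Plk1, Cdk1, Birc5, Nek2 and Aurkb rose, so 5 of 9 members, with a median log2 fold change of 1.02 over the 9 (all genes -0.0049). Plk1 had the lowest FDR, with 0.380, 3.77 and 8.82 FPKM as lowest, median and highest TIM value (log2 fold change 1.61 ± 0.43 SE, limma FDR 0.00362). Cdk1 was at 0.143, 2.76 and 6.02 FPKM (log2 fold change 1.40 ± 0.43 SE, limma FDR 0.00865). These 2 genes passed without any 1 library, whereas the calls of Birc5 (limma FDR 0.0340), Nek2 (0.0353) and Aurkb (0.0370) were lost without any 1 of the 3 AG libraries.

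Aurka (log2 fold change 1.02, limma FDR 0.0567), Cdca8 (0.68, limma FDR 0.106), Bub1 (0.50, limma FDR 0.11) and Incenp (0.39, limma FDR 0.383) did not pass, with 95% intervals of 0.11 to 1.93, -0.04 to 1.39, -0.03 to 1.03 and -0.35 to 1.12. The count moved with single tumors. In TIM-e the members were at gland level, and without this library Aurka (limma FDR 0.0126) and Cdca8 (0.0333) passed as well, so 7 of 9. It fell to 2 without TIM-c, TIM-g or TIM-h and to 3 without TIM-f. With only TIM and AG setting the spread, 2 passed (Plk1 with limma FDR 0.0313, Cdk1 with 0.0462), where 1838 of 10171 genes were called higher. With limma-voom none did, where 1857 of 10171 genes were called higher, and 1 member had an unadjusted p below 0.05.

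In AGM vs AG the question was whether MYCN alone raised mitotic transcripts in glands that had formed no tumor. No member passed by limma, none had an unadjusted p below 0.05 by limma or limma-voom, and all 9 fold changes were below 0 (log2 -0.67 to -0.10). Of all tested genes, 14.6% were called higher and 14% lower. With FPKM recomputed on reads outside the genes above 1000 FPKM, the split of calls moved to 974 higher and 3630 lower genes, from 1488 and 1420, and Incenp passed (limma FDR 0.0351). Of the 9 cortex markers, 8 were called higher in AGM, and their part in the member values was not tested. Every AGM library was below every AG library for 9 of the 10 members, against 32.5% of all tested genes. Cdk1 was the exception, at 0.132, 0.159, 0.149, 0.246 and 0.102 FPKM in AGM, where AGM-d lay above the lowest AG library.

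Incenp had the largest fall of the fitted values. It measured 0.601, 0.533, 0.682, 0.782 and 0.530 FPKM in AGM, all under the 1.34 FPKM of the lowest AG library (log2 fold change -0.67, 95% interval -1.47 to 0.12, limma FDR 0.198). Cdca8 was at 0.0857, 0.0862, 0.111, 0.132 and 0.0715 FPKM, so that the AG mean was 4.13 times the AGM mean (log2 fold change -0.35, 95% interval -1.12 to 0.42, limma FDR 0.515). Birc5 was at 0.120, 0.134, 0.0586, 0.129 and 0.0562 FPKM, from 16 to 42 reads a library (log2 fold change -0.27, limma FDR 0.738). Bub1 rested on 4 to 8 reads in AGM and 35 to 50 in AG, and Ttk on 0 to 5 and 19 to 31.

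The limma result turned on the spread. The fit took it from all 24 libraries, and the tumors varied far more than the glands: the coefficient of variation of Birc5 was 73.0% in TIM and 63.2% in TI, against 21.0% in AG and 39.1% in AGM. With the spread taken from AGM and AG alone, all 9 members were called lower in AGM (Cdca8 limma FDR 1.31e-05, Incenp 0.000218, Bub1 0.000253, Birc5 0.000756, Cdk1 0.0236), where 32.9% of all tested genes were called lower.

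TIM and TI were compared directly, which is also the test of whether the rise over AG differed between the tumor models. Of all tested genes, 10% were called higher and 12.9% lower in TIM, as 1017 and 1315 genes (816 and 1879 with recomputed FPKM). Birc5, Cdca8 and Aurkb, 3 of the 4 subunits of the passenger complex, were lower in TIM, and none of the 9 was higher. The median log2 fold change of the members was -0.67 (all genes -0.0040). Birc5 was at 0.0937, 2.43 and 5.09 FPKM (lowest, median, highest) in TIM, and 4 of 8 TIM tumors lay below all TI tumors (log2 fold change -1.22 ± 0.35 SE, 95% interval -1.95 to -0.50, limma FDR 0.0155). Cdca8 was at 0.0870, 1.31 and 2.87 FPKM in TIM, again with 4 of 8 tumors below all TI tumors (log2 fold change -0.81 ± 0.25 SE, limma FDR 0.0262). Aurkb was at 0.0783, 2.32 and 4.73 FPKM (log2 fold change -0.89 ± 0.31 SE, limma FDR 0.0409). The groups overlapped for all 3 genes. The call of Aurkb was lost with limma-voom (FDR 0.0562), a pseudocount of 0.1 (limma FDR 0.0544) and no filter (limma FDR 0.0599), and it passed in 7 of 16 fits without 1 library, against 11 of 16 for Cdca8.

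The other 6 tested members did not pass. They were Cdk1 (log2 fold change -0.47, 95% interval -1.12 to 0.19), Nek2 (-0.37, -0.81 to 0.08) and Plk1 (-0.58, -1.25 to 0.09), then Aurka (-0.73, limma FDR 0.106), Bub1 (-0.45, limma FDR 0.0882) and Incenp (-0.67, limma FDR 0.0699). Whether one member differed from another in this change was not tested. Birc5 passed without any 1 library, at limma FDR of 0.00587 to 0.0369. It was the one member left without TIM-e, TIM-b, TI-b, TI-c or TI-g, while 6 members passed without TI-d and 5 without TIM-c. None passed with the spread of TIM and TI alone (Birc5 limma FDR 0.0632, Cdca8 0.0895, Aurkb 0.117).

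Against AGM, TIM tumors were higher in all 9 tested members (limma FDR 0.000151 to 0.0193), where 31.9% of all tested genes were called higher and 33.4% lower, as 3241 and 3398 genes (4283 and 2656 with recomputed FPKM). Plk1 had the largest fold change (1.85 ± 0.37 SE), and Plk1, Bub1 and Ttk were above every AGM library in all 8 TIM tumors. The share of all genes with such a separation was not counted, so no result about the members is drawn from it. With limma-voom 3 members passed, Plk1 (FDR 0.0356), Incenp (0.0428) and Cdk1 (0.0499), where 2728 of 10171 genes were called higher.

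Tumor by tumor, the members kept nearly the same order. In TI, TI-c was first or second for all 10 members and TI-b for 9, and TI-d was the lowest for all 10. In TIM, TIM-e was the lowest for all 10, TIM-b the second lowest for all 10, and TIM-c was first or second for all 10. Across the 16 tumors, with the mean of each group taken off, each member correlated with the mean of the other 9 at Pearson r of 0.899 (Incenp) to 0.993 (Aurka). The points of these correlations share libraries and scaling, and no p is given.

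TIM-e stood apart in level. Its values were 0.0937 FPKM for Birc5, 0.0783 for Aurkb, 0.0870 for Cdca8 and 0.244 for Incenp. It was below every AG library for 9 of 10 members, with Plk1 (0.380 FPKM) inside the AG range, and below every AGM library for 3. Nek2 was at 0.00973 FPKM in TIM-e, from 4 reads, and at 2.45 FPKM in TIM-g. TIM-b, the next tumor, was above every AG library for 7 of 10 members, with Birc5 at 0.673 and Plk1 at 1.18 FPKM. In TIM-b, Incenp (0.994 FPKM) was below every AG library, and Aurka (0.579 FPKM) and Cdca8 (0.397 FPKM) were inside the AG range. The other 6 TIM tumors and all 8 TI tumors were above every AG library for all 10.

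Chromaffin and sympathetic genes were set beside this order after it was seen. Th and Chga are among the 126 genes above 1000 FPKM in some library, which took most recovered reads in AGM and TIM, and the part of this in their levels was not tested. Th, the rate-limiting enzyme of catecholamine synthesis, was highest in TIM-e (1889 FPKM) and TIM-b (1514 FPKM), the tumors lowest in the members, and lowest in TIM-f (11.8 FPKM) and TIM-c (25.1 FPKM). Dbh, which makes noradrenaline and drives the Cre, was at 593 and 446 FPKM in TIM-e and TIM-b and at 18.8 to 166 FPKM in the other TIM tumors. The granule protein Chga was at 1266 and 1016 FPKM in these tumors and at 28.5 to 475 FPKM in the others. In TI, Th was highest in TI-f (235 FPKM) and TI-d (181 FPKM), which were also the lowest tumors for 8 of 10 members, and Th was lowest in TI-b (18.1 FPKM) and TI-c (21.5 FPKM). The granule genes did not follow this order in TI, where TI-d ranked 4 of 8 from the top for Chga (102 FPKM, against 926 FPKM in TI-f) and 6 of 8 for Chgb (13.6 FPKM).

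TIM-e differed further in Schwann lineage genes, with Sox10 at 15.3 and Foxd3 at 20.4 FPKM, against 8.24 and 7.52 FPKM in TIM-a and at most 1.19 and 2.86 FPKM in the other TIM tumors. Cortex genes were near 0 in TIM-e (Star 0.510, Cyp11b1 1.34 FPKM), although the sum of the 9 cortex markers was 11.3 FPKM there and at most 4.09 FPKM in the other TIM tumors. The 5 adipocyte markers summed to 48.4 FPKM in TIM-e and to at most 14.0 FPKM in the other TIM tumors. The part of the tissue makeup in its low member values was not tested.

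**Figure D3:**
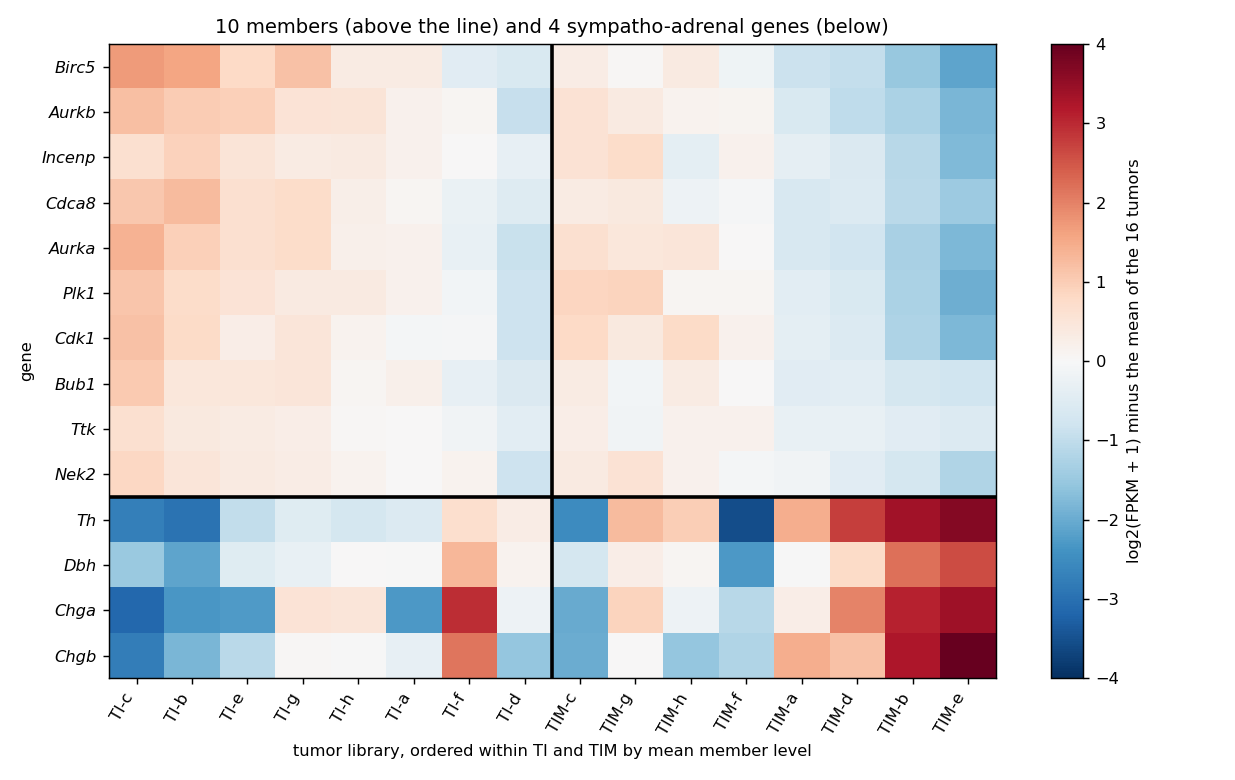
Color gives log2(FPKM + 1) of a gene in a tumor minus its mean over the 16 tumors, with members above the black line and 4 sympatho-adrenal genes below it, and tumors ordered in TI and TIM by mean member level. Members fade from left to right together in each model, down to TI-d and TIM-e, and Th is high in TIM-d, TIM-b and TIM-e, where the members are low.

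Within the passenger complex the balance of subunits changed between gland and tumor. Incenp was the highest subunit in all 3 AG and all 5 AGM libraries. The ratio of Birc5 to Incenp FPKM was 0.185 to 0.222 in AG and 0.0859 to 0.252 in AGM. In TI it was 0.742 to 2.55, with a median of 1.37, and Birc5 was the highest subunit in 6 of 8 tumors, with TI-d and TI-f the others. In TIM it was 0.384 to 2.23, with a median of 0.741, and Birc5 led in TIM-h only, at a ratio of 2.23. No gland reached the ratio of any tumor.

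Aurkb and Cdca8 shifted in the same sense. Aurkb to Incenp was 0.188 to 0.229 in AG, 0.425 to 1.37 in TI and 0.321 to 1.40 in TIM, and Cdca8 to Incenp was 0.233 to 0.293 in AG, 0.440 to 0.920 in TI and 0.357 to 0.698 in TIM. In AGM the Cdca8 ratio was 0.135 to 0.168, below every AG library. These are ratios of RNA per gene length and say nothing of the proteins, which bind each other in fixed proportion. As a share of the summed FPKM of the 10 members, Incenp made up 37.8% ± 1.43 (SD, n = 3) in AG and 36.8% ± 3.71 (SD, n = 5) in AGM, but 13.3% ± 3.75 (SD, n = 8) in TI and 15.1% ± 3.69 (SD, n = 8) in TIM. Birc5 made up 7.71% ± 0.451 in AG, 18.4% ± 3.91 in TI and 11.8% ± 2.46 in TIM. Plk1 had the largest share in TIM, 21.3% ± 4.79, against 16.1% ± 1.88 in TI.

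**Figure D4:**
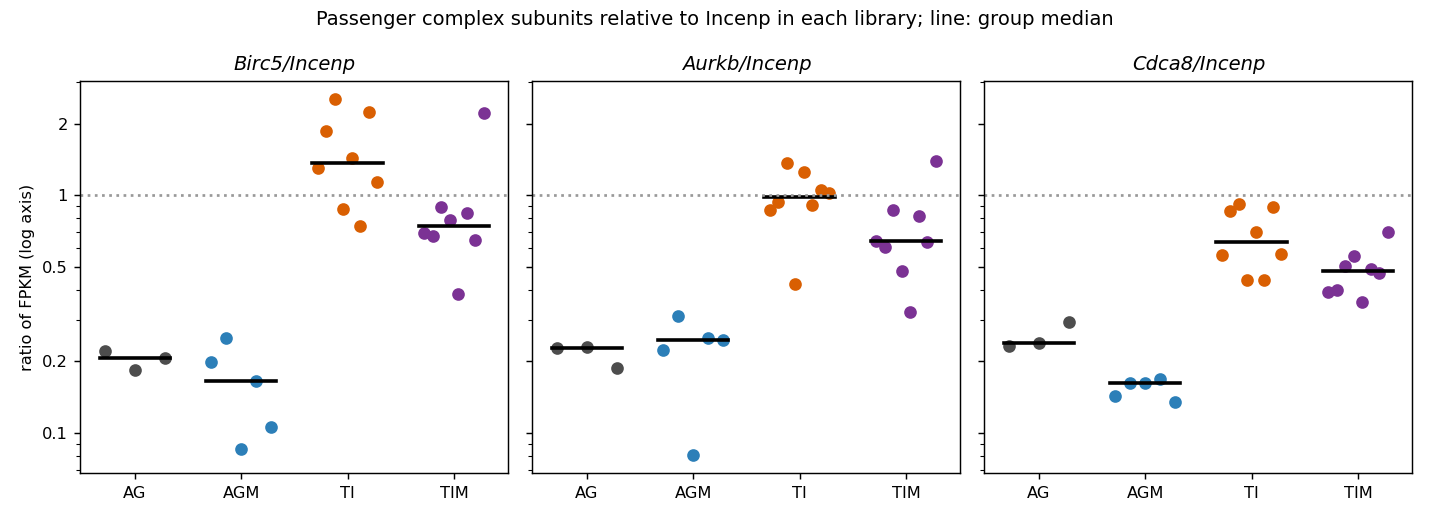
Ratio of the FPKM of Birc5, Aurkb and Cdca8 to that of Incenp on a log axis, 1 point per library, with the black line at the group median and a dotted line at 1. Gland points stay under 0.32 in all panels and tumor points at or above 0.321, and the Birc5 ratio exceeds 1 in 6 of 8 TI tumors and in 1 of 8 TIM tumors.

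Partners of the members were followed through fixed lists, given as genes called by limma at FDR below 0.05 among those tested, with the background shares named above. Listed genes under 1 FPKM in every gland library, such as Cdc25c, Mki67 and Cenpf, also passed the filter through tumors alone. With limma-voom, 23 of the 30 calls of named partners passed in TI vs AG, 11 of 26 in TIM vs AG and 10 of 14 in TIM vs TI, and no sign changed. In AGM vs AG, 9 of 11 such calls passed with limma-voom and 9 of 11 with recomputed FPKM. Of the genes that recruit or relay the passenger complex, 5 of 7 tested rose in TI vs AG (median log2 fold change 1.61) and 3 of 7 in TIM vs AG. Cenpa, the centromeric histone, rose in TI (1.89 ± 0.43 SE, limma FDR 0.000736) and TIM (1.17, limma FDR 0.0259). Psrc1, which binds spindle microtubules, rose in TI (1.64, limma FDR 0.00108) and was lower in TIM than in TI (-0.79, limma FDR 0.049), the one call in that comparison. Bub3, the partner of BUB1, was at 0.52 in TI vs AG and 0.38 in TIM vs AG (limma FDR 0.0802 and 0.2). It was at 2.91 to 3.10 FPKM in AG and 3.24 to 6.41 FPKM in TI.

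Kinase activators and cyclins rose in 10 of 13 tested genes in TI vs AG and 8 of 13 in TIM vs AG, with 1 lower in each. Tpx2, which activates Aurora A on the spindle, rose in both (2.03, limma FDR 0.00034, and 1.07, limma FDR 0.0394) and was lower in TIM than in TI (-0.96, limma FDR 0.0304). Bora, the cofactor with which Aurora A activates PLK1, was below the filter, at 0.0903 to 0.121 FPKM in AG and 0.275 to 1.79 FPKM in TI. The cyclin B genes had small fitted differences between the models. Ccna2, which encodes cyclin A2, was at -0.68 in TIM vs TI (limma FDR 0.156), and no test compared these genes with each other. Ccnb1 rose by 1.72 in TI and 1.57 in TIM (limma FDR 0.00285 and 0.00599), with a difference of -0.15 (limma FDR 0.797), and Ccnb2 by 1.67 and 1.31 (limma FDR 0.00227 and 0.0138), with a difference of -0.36 (limma FDR 0.432). The CDK1-activating phosphatase Cdc25c was lower in TIM than in TI (-0.85, limma FDR 0.00385), and so was Pkmyt1, which encodes an inhibitory kinase of CDK1 (-0.90, limma FDR 0.0065). Ajuba, an Aurora A activator and adhesion scaffold, was the gene that fell in TI (-1.40, limma FDR 7.16e-09) and TIM (-1.18, limma FDR 1.04e-07). It was higher in AGM than in AG (0.92, limma FDR 3.68e-05, but 0.102 with recomputed FPKM).

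Of the spindle checkpoint and kinetochore genes, 11 of 15 tested rose in TI vs AG and 4 rose and 1 fell in TIM vs AG, and 6 were lower in TIM than in TI. Bub1b, which encodes BUBR1, rose in TI (1.41 ± 0.31 SE, limma FDR 0.00064) and was lower in TIM than in TI (-0.79, limma FDR 0.0174). Cenpf, an outer kinetochore gene, had the same pattern (1.01, limma FDR 0.000294, and -0.56, limma FDR 0.0118). Zwint, which links KNL1 to the checkpoint proteins, rose in both tumor models (1.94 and 2.27) and in AGM (1.14, limma FDR 0.0068). Mis12, a kinetochore gene, was lower in TIM than in AG (-0.96, limma FDR 0.000555) and in TI (-0.58, limma FDR 0.0108). It was also lower in AGM than in AG (-0.98, limma FDR 0.00256), and TIM and AGM did not differ (0.016, limma FDR 0.941).

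The anaphase promoting complex, which destroys cyclin B and securin, was mixed. Of its 17 tested genes 8 rose and 2 fell in TI vs AG, and 3 rose and 3 fell in TIM vs AG. Ube2c, its ubiquitin-conjugating enzyme, rose in TI (3.21 ± 0.55 SE, limma FDR 4.05e-05). The activator Cdc20 rose in TI (1.97, limma FDR 0.00126) and TIM (1.21, limma FDR 0.0359, but 0.0737 with recomputed FPKM). The core subunit gene Anapc13 fell in TI and TIM (-1.12 and -1.35, limma FDR 5.2e-05 and 4.87e-06) and also in AGM (-0.67, limma FDR 0.0224). Anapc11, the RING subunit, was lower in TIM than in TI (-0.86, limma FDR 0.00247). Of the opposing phosphatases, 4 of 18 rose and 3 fell in TI vs AG, and 2 rose and 6 fell in TIM vs AG. Ppp2r2a, a B55 subunit, fell in both (-1.29 and -1.15) and so did the PP1 catalytic gene Ppp1cb (-1.34 and -1.25, limma FDR 2.98e-06 and 7.95e-06). In AGM vs AG, Ppp2r2a (-0.64, limma FDR 0.00134) and Ppp1cb (-0.69, limma FDR 0.0138) were lower as well. Ppp2r5c, a B56 subunit, was lower in TIM than in TI (-0.54, limma FDR 0.000119).

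Other mitotic kinases were mixed, with 3 of 9 tested higher and 3 lower in TI vs AG, and 4 higher and 4 lower in TIM vs AG. Plk2, a stress-linked relative of Plk1, rose in TI (1.63, limma FDR 1.2e-06), TIM (1.18) and AGM (0.67, limma FDR 0.0334), whereas the NEK family gene Nek7 fell in all 3 (-0.88, -0.88 and -0.45). In AGM, the Plk2 call was lost with recomputed FPKM (limma FDR 0.116) and the Nek7 call with limma-voom (FDR 0.0740). Plk3 was the one gene of this list higher in TIM than in TI (0.68, limma FDR 0.00586). Among the regulators of this gene class, 5 of 12 tested rose and 1 fell in TI vs AG, and 2 rose and 2 fell in TIM vs AG. Foxm1, a transcription factor of G2/M genes, rose in TI (1.78, limma FDR 0.00111) and TIM (1.31, limma FDR 0.0122), and Mybl2, which encodes B-MYB, in TI (1.72, limma FDR 0.000528) and TIM (0.98, limma FDR 0.0332). The pocket protein gene Rbl2, of the repressive form of the MuvB complex, fell in TI (-0.82) and TIM (-0.89). It was also lower in AGM than in AG (-0.32, limma FDR 0.0264). Nfyb, a subunit of the CCAAT-binding factor, was lower in TIM than in TI (-0.58, limma FDR 0.000238).

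General proliferation genes rose in 8 of 13 in TI vs AG and 4 of 13 in TIM vs AG, and none fell. Mki67, the Ki-67 antigen, rose in TI (1.88 ± 0.31 SE, limma FDR 2.22e-05) and TIM (0.87, limma FDR 0.022) and was lower in TIM than in TI (-1.0, limma FDR 0.00367). Top2a, the topoisomerase of dividing cells, rose in TI (2.62, limma FDR 0.000493) and TIM (1.50, limma FDR 0.0313), and Stmn1, a microtubule regulator also made by neurons, by 4.88 and 4.12. In AGM vs AG, calls over the 8 lists numbered 0 or 1 higher each. Lower calls in AGM numbered 7 of 18 phosphatase genes, 4 of 17 genes of the anaphase promoting complex, 4 of 12 regulators and 3 of 9 other kinases, against the 14% background, and 0 or 1 in each of the other 4 lists. With recomputed FPKM, which moved the median of all genes in this contrast to -0.41, they numbered 14 of 18 and 12 of 17 in the first 2 of these lists.

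The genes most like the members across the 16 tumors, by Pearson correlation with the mean of the 10 members after taking off each group mean, were Ccna2 (r 0.986, Spearman rho 0.976), Tpx2 (0.983, 0.968), Fen1 (0.983, 0.991), Ncaph (0.983, 0.991) and Melk (0.982, 0.979). They encode cyclin A2, the Aurora A activator, a flap endonuclease of DNA replication, a condensin subunit and a kinase of dividing cells. Without TI-d and TIM-e, the tumors farthest from the median, r was 0.969 to 0.976. Fen1 followed the order of tumors but did not pass in TI vs AG (0.71, limma FDR 0.102) or TIM vs TI (-0.33, limma FDR 0.393). It passed in TIM vs AGM (0.83, limma FDR 0.0198).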

How the data were processed

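Poly(A)-enriched, strand-specific RNA-seq was made from 24 mouse adrenal glands and tumors. Per the submitters' processing notes and the study's methods, reads were aligned with HISAT2 2.1.0 to mm39, and cutadapt 2.8, SAMtools 1.10 and featureCounts 2.0.0 are named without a role. The authors then applied ComBat-seq as a batch correction and scaled by TMM in edgeR 3.40. The deposited values are FPKM made by the authors, with gene length in bases as another deposited column. The annotation was not given in the sources used here. The table also holds the authors' fold changes, p-values and FDR, which were not used.

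Columns were assigned to groups by name, and no column was tied to a run, zygosity or tumor location. FPKM times length, divided by the worth of 1 read found for each library from its lowest values, gave whole reads for 100% of values above 0 and under 100000 reads (tolerance 0.1). These recovered reads are corrected values, and statements on them cover counting error only. As the table holds FPKM, limma 3.58.1 (R 4.3.3; lmFit, eBayes with trend) was run on log2(FPKM + 1), for the 10171 genes that reached 1 FPKM in 3 or more libraries. The 24 libraries shared 1 spread, without covariates, and p-values were adjusted over all tested genes. The code was tested on simulated data. Alternatives were a pseudocount of 0.1, no filter (18862 genes), only the groups compared, FPKM recomputed on recovered reads outside genes above 1000 FPKM, limma-voom on recovered reads, and leaving out each library.

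The members and lists were chosen with earlier results of these data known. Named genes were the 10 members, 11 fixed partners, from each list the 2 non-members with the smallest FDR in TI vs AG and the 1 in TIM vs TI, and the 5 genes most like the members. Gene positions are from GENCODE M39 on GRCm39, promoters from RefSeq on GRCm38.p6. One promoter window and one marker gene are not reported here.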

Additional observations from a re-analysis of the deposited data

Results flagged for a closer look

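The rise over AG differed between the tumor models for 3 members, by the limma test of TIM vs TI. The log2 fold change over AG was lower in TIM than in TI by 1.22 for Birc5 (-1.22, limma FDR 0.0155), for Aurkb the difference was -0.89 (limma FDR 0.0409) and for Cdca8 it was -0.81 (limma FDR 0.0262). Of the TIM tumors, 4 of 8 lay below every TI tumor for Birc5, 3 of 8 for Aurkb and 4 of 8 for Cdca8. The Aurkb call was lost with limma-voom (FDR 0.0562), and TI and TIM came largely from different runs. By Dixon's ratio on FPKM, no library stood far from its group in 30 tests of a member in AGM, TI or TIM, but on this scale a low value can hardly stand apart. On log2 FPKM, chosen after the data were seen, 3 of 29 tests did: Nek2 in TIM-e (0.00973 FPKM, ratio 0.679) and in TI-d (0.301 FPKM, 0.64), and Aurkb in TI-d (1.03 FPKM, 0.536). A single test passes by chance about 1 time in 20. The tests share libraries and the members follow nearly the same order of tumors, so this rate cannot be set against the count.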

How the results depend on the processing

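No paired analysis was possible because the columns carry no replicate number. In 672 of 756 refits of a member's fold change the direction and the side of the threshold were as in the report; in 60 the call was lost, in 24 one was gained, and no direction turned. Without any 1 library, members called numbered 8 to 9 in TI vs AG, 2 to 7 in TIM vs AG (2 without any one of the 3 AG libraries, TIM-c, TIM-g or TIM-h, 7 without TIM-e), 0 in AGM vs AG, 1 to 6 in TIM vs TI and 9 in TIM vs AGM, and genes called in AGM vs AG 1896 to 2923. With only the groups compared setting the spread, members called were 2 in TIM vs AG, 9 in AGM vs AG and 0 in TIM vs TI, and genes called 6312 in AGM vs AG and 1309 in TIM vs TI (main 2908 and 2332). With recomputed FPKM, 1 member (Incenp) and 4604 genes were called in AGM vs AG. With limma-voom, members called were 0 in TIM vs AG and 3 in TIM vs AGM, and with no filter 3 in TIM vs AG. The cause was not tested. Recomputed values are 3.54 to 6.47 times the deposited ones, so the pseudocount weighs less, and this scaling moved the median of all genes to -0.15 in TIM vs AG, -0.41 in AGM vs AG, -0.12 in TIM vs TI and 0.31 in TIM vs AGM. By Spearman correlation 2 of the 5 most alike genes were shared. In the last 150 bases of the promoters the motif counts of the members did not change, but the shares of all promoters fell. They fell to 8.59% for TTTGAA or TTCGAA, 23.4% for CCAAT and 4.35% for CACGTG. The shares of Bub1 and Incenp in TIM against TI turned sign when taken as a log2 distance from the other 9 members. Bub1 moved from -0.31 percentage points to 0.22, and Incenp from 1.77 percentage points to -0.02. Bub1 and Ttk rest on at most 8 reads per AGM library, so their gland levels are the least precise.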

Other observations

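Genes that ran opposite to the members across the 16 tumors were looked for after the order of tumors was seen. With each group mean taken off, the lowest Pearson correlations with the mean of the 10 members belonged to Epdr1 (r -0.946, Spearman rho -0.935), Ccdc149 (-0.945, -0.938), Cpe (-0.941, -0.915), Vamp2 (-0.937, -0.891) and Ube2j1 (-0.936, -0.897). Cpe encodes carboxypeptidase E, which trims prohormones in secretory granules, and Vamp2 encodes a SNARE protein of synaptic and secretory vesicles. Without TI-d and TIM-e, r was -0.887 for Cpe and -0.91 for Vamp2. The tumors share libraries and scaling in these values, and no p is given.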
